A study of Mus musculus with 6 samples.

Results

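The genes described here encode the nuclear-encoded subunits of oxidative phosphorylation (OXPHOS), measured by RNA-seq in NIH3T3 cells, an immortalised mouse embryonic fibroblast line. They were taken by symbol: Ndufa, Ndufb, Ndufc, Ndufs or Ndufv followed by a digit, Sdha to Sdhd, and symbols that begin with Uqcr, Cox4, Cox5, Cox6, Cox7, Cox8 or Atp5, pseudogenes left out. Of 24062 genes in the count files, 84 matched these symbols, and 75 had 10 or more counts in each of the 6 libraries and are the members. All 75 were among the 13185 genes tested. The symbols leave out a few subunits, such as Cyc1 of complex III and Ndufab1 of complex I, and take 2 genes that are not known subunits, Atp5s and Atp5sl.

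Cells were transfected for 48 h with an siRNA against SPT6, or with a negative control (NC) siRNA, and were then given 100 units/ml of recombinant mouse IFNbeta for 4 h or left untreated. SPT6 (gene Supt6) is a histone chaperone and elongation factor that travels with RNA polymerase II. There were 2 libraries of SPT6 siRNA with IFNbeta, 2 of NC siRNA with IFNbeta, 1 of SPT6 siRNA untreated and 1 of NC siRNA untreated, and every group therefore carried an siRNA. Each target was addressed with 1 siRNA product. Nothing in the labels tells whether the libraries of a group are separate cultures, and the p-values rest on the spread between them, which may be technical.

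OXPHOS couples electron transport to ATP production in the inner mitochondrial membrane. Complexes I and II pass electrons from NADH and succinate to ubiquinone, complex III hands them to cytochrome c, and complex IV reduces oxygen, while I, III and IV pump protons whose return drives ATP synthase (complex V). A few subunits are encoded by the mitochondrial genome, which had no gene in the counts used here, and all others are made from nuclear genes such as these, imported and assembled. NRF1, GABPA, YY1 and ERRalpha are transcription factors known to regulate many of these nuclear genes.

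Gene counts per library were 7935961 to 11174825 with SPT6 siRNA and 11968565 to 17596498 with NC siRNA. Supt6 itself had 108, 88.4 and 101 CPM (counts scaled to a common library size) in the 3 SPT6 siRNA libraries, against 177, 189 and 175 CPM in the 3 NC siRNA libraries, so the knockdown was partial. All 12 fibroblast marker genes were tested, with summed levels of 14244 to 16526 CPM with SPT6 siRNA and 18755 to 21510 CPM with NC siRNA. Macrophage markers summed to 9.71 to 13.3 CPM with SPT6 siRNA and 3.68 to 5.80 CPM with NC siRNA, with C1qa at 0 throughout. Endothelial, epithelial and adipocyte marker sums stayed at or below 5.91 CPM in every library, and muscle marker sums at or below 16.6 CPM. The IFNbeta-treated SPT6 siRNA library number 2 had the highest share of the ribosomal RNA precursor Rn45s, 2.39% of gene counts, against 0.841% to 1.34% in the other 5. The part of these differences in the results was not tested. In bulk RNA, fewer cells of a state and less RNA per cell cannot be told apart.

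Together the 75 members took 1.03%, 0.898% and 1.06% of gene counts in the SPT6 siRNA libraries (IFNbeta number 1, IFNbeta number 2, untreated), against 0.876%, 0.840% and 0.916% in the NC siRNA libraries in the same order, which is kept for values by library below. Summed over members and scaled by TMM, this was 10336, 8727 and 10044 CPM with SPT6 siRNA, against 9204, 8775 and 9007 CPM with NC siRNA. By this scaled sum, the untreated and the number 1 SPT6 siRNA libraries lay above all 3 NC siRNA libraries, and the number 2 SPT6 siRNA library lay below them. The place of number 2 depended on the scaling. By share of gene counts it lay above both NC siRNA libraries with IFNbeta and below the untreated one.

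Levels differed far more between subunits than between libraries. Per kilobase of exon, Cox8a, a small accessory subunit of cytochrome c oxidase, had the highest mean level over the 6 libraries, 415 CPM per kb. Atp5a1 and Atp5b, the alpha and beta subunits that form the catalytic head of ATP synthase, followed with 261 and 250 CPM per kb, then Cox6a1 with 238 and Uqcrh with 197 CPM per kb. By complex, the median level was 36.2 CPM per kb for complex I, 35.5 for complex II, 78.1 for complex III, 131 for complex IV and 58.3 for complex V, over the 74 members with an annotated length. The lowest were Atp5s and Atp5sl, the pair that are not known subunits, at 2.37 and 2.71 CPM per kb, and among known subunits Ndufb2 of complex I at 5.54 CPM per kb. Exon length is the union over annotated transcripts, so genes with long unused exons are placed too low.

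**Figure D1:**
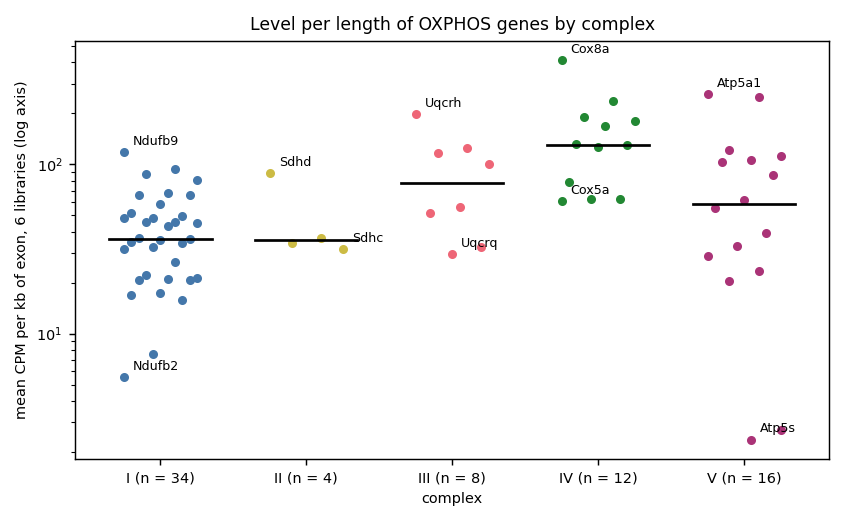
Mean level over the 6 libraries of the 74 OXPHOS genes with an annotated length, in CPM per kb of exon on a log axis, by complex; each point is a gene and each bar the median of a complex. Complex IV has the highest median, 131 CPM per kb, and Cox8a the highest level, 415 CPM per kb; the lowest points are Atp5s and Atp5sl.

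Most alternative isoforms were near or under what the depth can show. Cox6b2, Cox8b and Cox8c had 0 counts in every library, where 3 counts would equal 0.178 to 0.360 CPM depending on depth. Cox7a1 and Cox7b2 had at most 1 count, Ndufa4l2 at most 3 and Cox4i2 at most 7. Cox6a2, the heart and muscle partner of Cox6a1, had 2, 1 and 1 counts in the SPT6 siRNA libraries, against 7, 15 and 2 counts in the NC siRNA libraries, and at most 0.566% of the counts of the COX6A pair. The last gene under the count minimum was Ndufs5, a complex I accessory subunit, with 14, 10 and 6 counts with SPT6 siRNA, against 8, 15 and 17 counts with NC siRNA. Of the 50-base stretches of its coding transcript, 31.1% also occur in transcripts of other genes. Reads that did not align uniquely were not counted, and their part in its low counts was not tested. Atp5s, with 46 to 70 counts, was the nearest gene inside the count minimum. The ubiquitous isoforms carried the expression: Cox4i1 averaged 180 CPM per kb, Cox6b1 191, Cox7a2 130 and Ndufa4 169 CPM per kb.

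The main question was whether lowering SPT6 moved these genes, and the only comparison with 2 libraries in both groups was SPT6 siRNA against NC siRNA with IFNbeta. No member passed an adjusted p of 0.05 in edgeR's quasi-likelihood test, and no gene of the 13185 did (0% called in either direction). Supt6, the target of the siRNA, was not called either, with a log2 difference of −0.90 ± 0.18 (edgeR adjusted p = 0.247). The lack of calls therefore does not show that the members were unchanged. The smallest adjusted p of a member was 0.386, for Uqcrfs1. At an unadjusted p under 0.05 there were 4 members, all higher with SPT6 siRNA (Ndufa1, Uqcrfs1, Atp5g3 and Atp5l), among 1538 genes, and 7.36% of all genes were higher at that level. DESeq2 and limma-voom also called 0 members, of 62 and 0 genes called. With the replicate number as a block, edgeR called 9 members (12% of members) and 2638 genes (20% of all genes). The labels do not say what the number marks, so that fit is kept as an alternative. The edgeR adjusted p values of single genes below come from the fit without the block. The median log2 difference, SPT6 siRNA minus NC siRNA, was 0.03 over members (quartiles −0.07 and 0.26) and −0.02 over all genes, with 44 members above 0 and 31 below. That median was −0.09 without the SPT6 siRNA library number 1, 0.17 without number 2, 0.16 without the NC siRNA library number 1 and 0.0029 without number 2.

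In untreated cells, 1 library against 1, the median over members was 0.14, against −0.02 over all genes, and 57 of 75 members were above 0. This comparison borrows its spread from the IFNbeta groups. edgeR called 0 members and 0 genes, and 2 members, Ndufa11 and Ndufb7, had an unadjusted p under 0.05, beside 2.14% of all genes that were higher at that level. DESeq2 called 0 members of 2 genes called, and limma-voom called none of either.

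**Figure D2:**
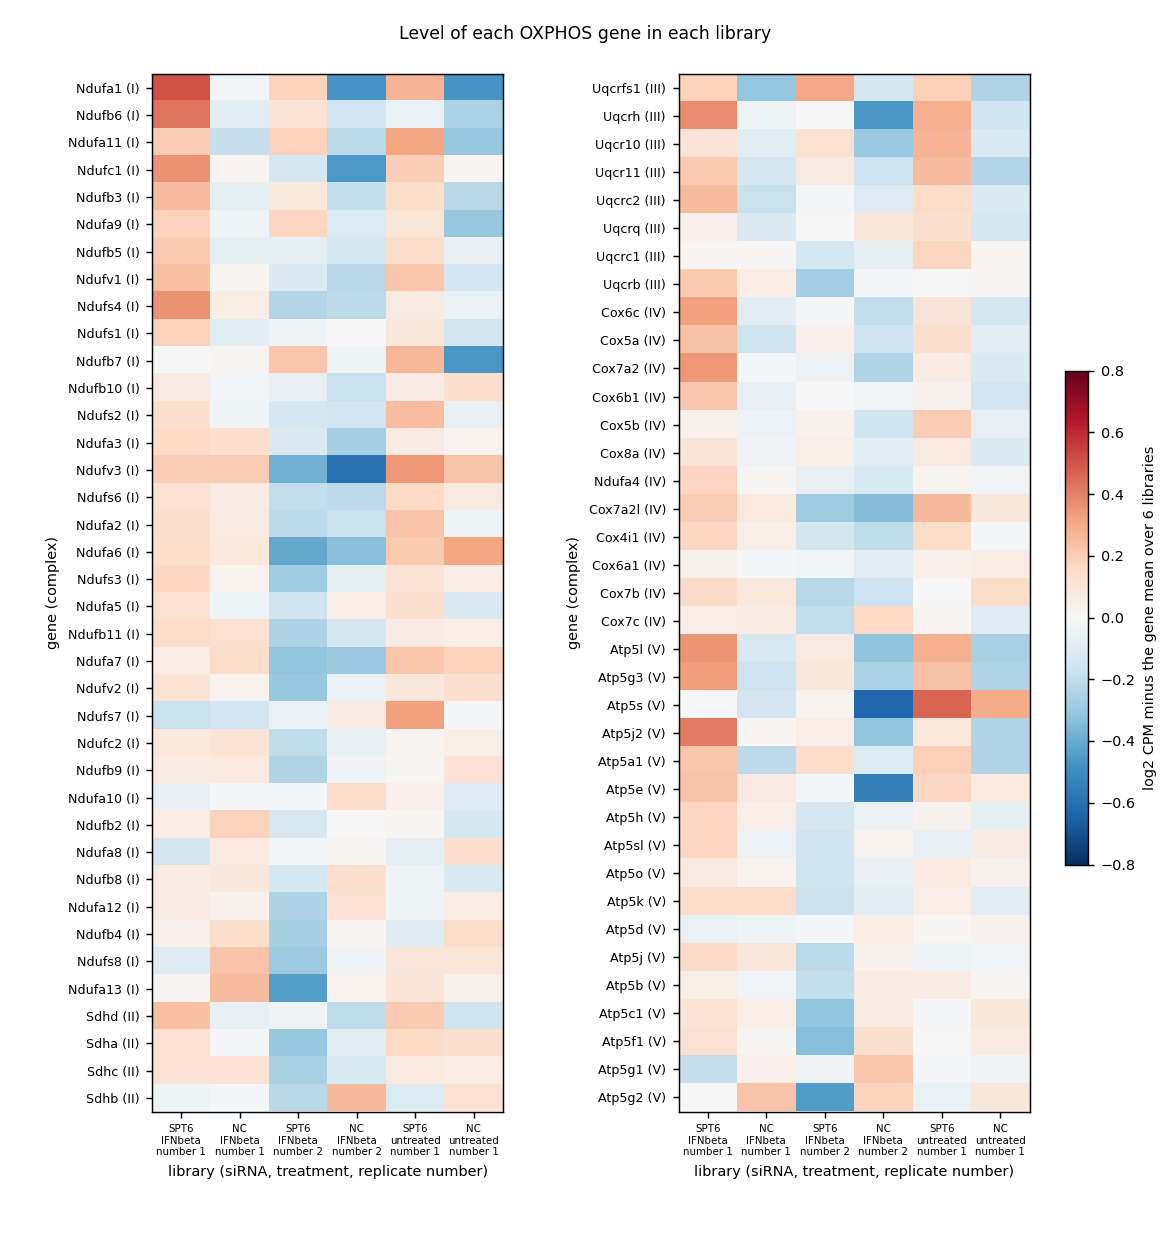
Level of each of the 75 members in each of the 6 libraries, as log2 CPM minus the gene's mean over the 6 libraries (red above, blue below); rows are genes with their complex, columns are libraries with SPT6 siRNA left of NC siRNA in each pair. The SPT6 siRNA library number 2 with IFNbeta is bluer than the other SPT6 siRNA libraries, and Ndufa1, Uqcrfs1 and Atp5l are redder with SPT6 siRNA in every pair.

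Since the labels number the libraries, each SPT6 siRNA library was also set against the NC siRNA library of the same treatment and number, which gives 3 pairs; the labels do not say what a number stands for. The median difference over members was 0.12 in the IFNbeta number 1 pair, −0.03 in the IFNbeta number 2 pair and 0.14 in the untreated pair. There were 32 members higher in all 3 pairs, where 25.8% of all genes were, and 7 lower in all 3, where 28.3% of all genes were. Differences of 0.3 or more on the log2 scale in every pair were found upward for 7 members, against 8.49% of all genes, and downward for no member, against 6.02% of all genes. The upward share was near that of all genes. The 7 were Ndufa1, Ndufa11, Uqcrfs1, Uqcrh, Atp5l, Atp5j2 and Atp5g3. Across the 75 members, pair differences had Spearman correlations of 0.64, 0.72 and 0.68 between pairs, and across all 13185 genes 0.49, 0.52 and 0.56. These correlations are across genes within the same libraries, and genes are not independent replicates.

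**Figure D3:**
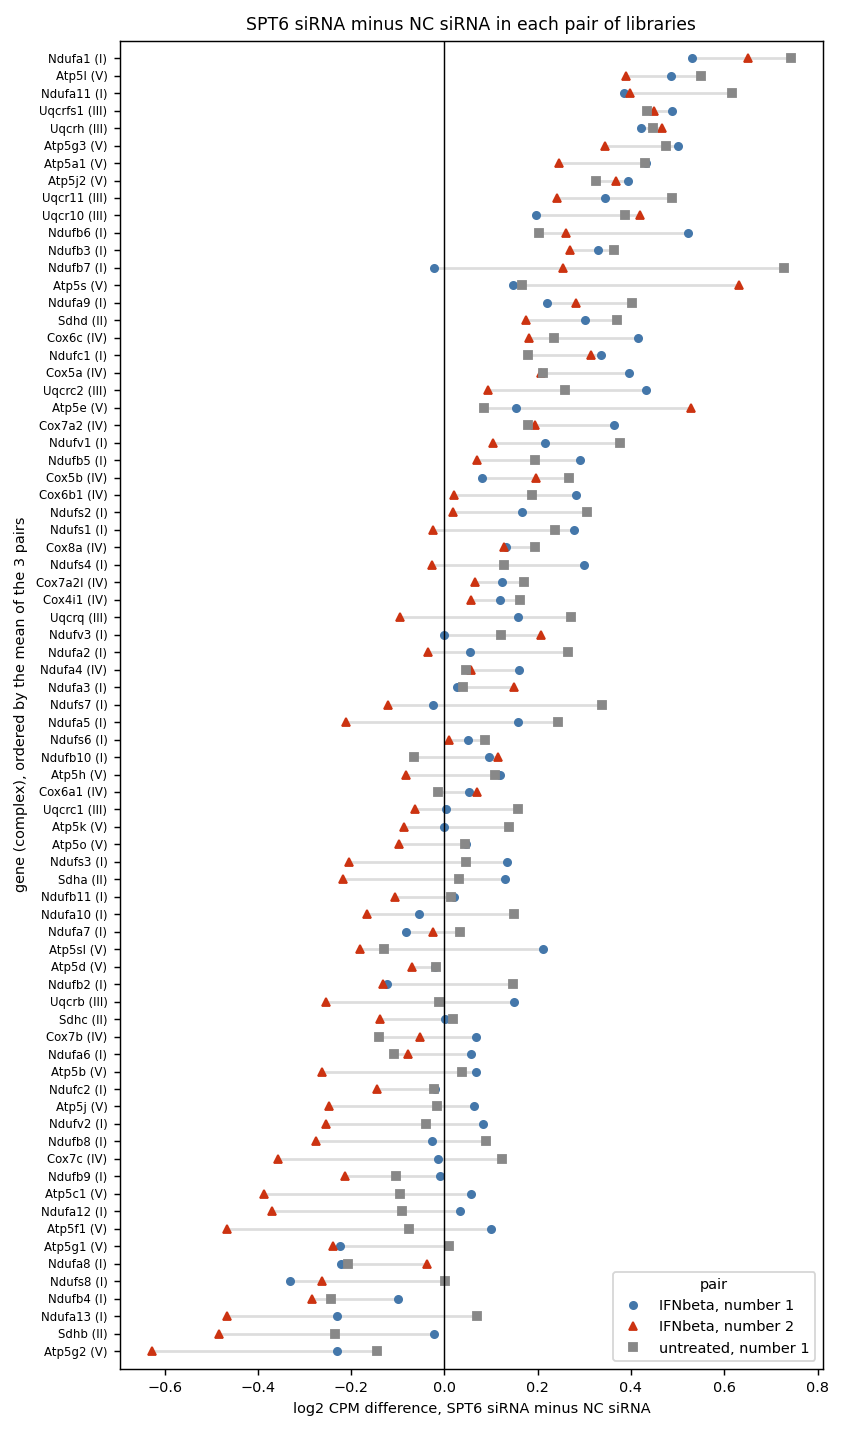
Log2 CPM difference, SPT6 siRNA minus NC siRNA, in the 2 IFNbeta pairs and the untreated pair for each of the 75 members, ordered by their mean. Ndufa1 is at the top with 0.53, 0.65 and 0.74 and Atp5g2 at the bottom with −0.23, −0.63 and −0.14; 32 members are above 0 and 7 below 0 in all 3 pairs.

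In complex I, the NADH dehydrogenase, the 34 members had a median difference of 0.01 with IFNbeta and 0.12 untreated. The highest member of all was Ndufa1, a small accessory subunit of the membrane arm. Ndufa1 had 51.0 and 40.7 CPM with IFNbeta and 43.3 CPM untreated in the SPT6 siRNA libraries, against 35.2 and 25.9 CPM with IFNbeta and 25.8 CPM untreated in the NC siRNA libraries. Each SPT6 siRNA library lay above each NC siRNA library. With IFNbeta this was 45.8 ± 7.26 CPM with SPT6 siRNA and 30.6 ± 6.62 CPM with NC siRNA (SD, n = 2 each), a log2 difference of 0.59 ± 0.23 (SE, edgeR adjusted p = 0.401). Ndufa11, another accessory subunit of that arm, had 42.3, 41.8 and 45.9 CPM with SPT6 siRNA, against 32.4, 31.7 and 29.9 CPM with NC siRNA, and a log2 difference of 0.39 ± 0.17 with IFNbeta (edgeR adjusted p = 0.435). Its groups also did not overlap. Across all members, the IFNbeta groups did not overlap with SPT6 siRNA higher for 22 members, where 22.7% of all genes were, and lower for 9, where 21.3% were.

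The complex I members that carry its redox centres lay near 0. The 7 core subunits had a median of −0.02 with IFNbeta, with 3 above 0. Ndufs1, which holds iron-sulphur clusters, differed by 0.13 ± 0.17 and Ndufv1, which binds NADH and FMN, by 0.17 ± 0.19 (edgeR adjusted p = 0.799 and 0.774). Ndufs7, at the ubiquinone end, had 23.8, 25.9 and 33.7 CPM with SPT6 siRNA, against 24.2, 28.2 and 26.6 CPM with NC siRNA, and its groups overlapped. The signs of Ndufv1 and Ndufs7 turned when 1 IFNbeta library was left out, and that of Ndufs7 also with library-size scaling. The lowest complex I member was Ndufa13 (GRIM-19), with 73.8, 53.5 and 77.9 CPM with SPT6 siRNA, against 86.7, 74.0 and 74.3 CPM with NC siRNA, a log2 difference with IFNbeta of −0.34 ± 0.22 (edgeR adjusted p = 0.571). The number 2 SPT6 siRNA library was the lowest of the 6. Ndufs8, a core iron-sulphur subunit, was next at −0.30 ± 0.19 (edgeR adjusted p = 0.560).

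Complex II, succinate dehydrogenase, has its 4 subunits all encoded in the nucleus, and their median difference was −0.05 with IFNbeta and 0.03 untreated. Sdhd, a membrane anchor, had 128, 107 and 126 CPM with SPT6 siRNA, against 104, 94.4 and 97.1 CPM with NC siRNA, and Sdhb, the iron-sulphur subunit, had 74.3, 65.1 and 70.4 CPM with SPT6 siRNA, against 75.4, 91.1 and 82.8 CPM with NC siRNA. So Sdhd lay higher in every SPT6 siRNA library and Sdhb lower. The other membrane anchor, Sdhc, had 110.4, 85.1 and 108 CPM with SPT6 siRNA, against 110.4, 93.7 and 106 CPM with NC siRNA, a log2 difference with IFNbeta of −0.06 ± 0.20 (edgeR adjusted p = 0.923), and its groups overlapped. The log2 differences with IFNbeta were 0.24 ± 0.17 for Sdhd and −0.26 ± 0.19 for Sdhb (edgeR adjusted p = 0.617 and 0.618). Sdha, the flavoprotein, differed by −0.03 ± 0.19 (edgeR adjusted p = 0.965), with a sign that turned under library-size scaling or when 1 IFNbeta library was left out.

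Complex III, the cytochrome bc1 complex, had the highest median of the 5 complexes, 0.28 with IFNbeta (6 of 8 members above 0) and 0.33 untreated (7 of 8 above 0). Uqcrfs1, the Rieske iron-sulphur protein, had 85.6, 93.8 and 86.3 CPM with SPT6 siRNA, against 61.1, 68.6 and 63.8 CPM with NC siRNA. The 3 SPT6 siRNA values stood clear of the 3 NC siRNA values, and the pair differences were close to each other at 0.49, 0.45 and 0.43. With IFNbeta the levels were 89.7 ± 5.75 CPM with SPT6 siRNA and 64.8 ± 5.34 CPM with NC siRNA (SD, n = 2 each), a log2 difference of 0.47 ± 0.17 (edgeR adjusted p = 0.386). Uqcrh, the hinge protein that helps cytochrome c dock, had 312, 240 and 293 CPM with SPT6 siRNA, against 232, 173 and 215 CPM with NC siRNA, a difference of 0.44 ± 0.22 (edgeR adjusted p = 0.492). Uqcr10 and Uqcr11, small accessory subunits, differed by 0.31 ± 0.17 and 0.30 ± 0.17. Uqcrc1, a core protein, lay at −0.03 ± 0.16 and Uqcrb, which lies near the ubiquinone site, at −0.03 ± 0.21, and both turned positive under library-size scaling. Cyc1, the cytochrome c1 that the symbols leave out, differed by 0.32 ± 0.20 (edgeR adjusted p = 0.557).

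The bases before the RefSeq start of Ndufa1 and Uqcrfs1, the highest members of complexes I and III, are shown from RefSeq (GRCm38.p6), 250 bases each, 5′ to 3′ on the gene's strand. Ndufa1 lies on chromosome X from 37187588 to 37191163 and Uqcrfs1 on chromosome 13 from 30540308 to 30545362 (GRCm38, GENCODE), both protein-coding. The last bases of the Uqcrfs1 window lie inside the GENCODE span of that gene. Capitals mark the one match found among 6 motifs searched, an SP1 GC box (GGGCGG or its reverse complement CCGCCC), in Ndufa1.
Ndufa1 (chrX:37191239-37191488, minus strand): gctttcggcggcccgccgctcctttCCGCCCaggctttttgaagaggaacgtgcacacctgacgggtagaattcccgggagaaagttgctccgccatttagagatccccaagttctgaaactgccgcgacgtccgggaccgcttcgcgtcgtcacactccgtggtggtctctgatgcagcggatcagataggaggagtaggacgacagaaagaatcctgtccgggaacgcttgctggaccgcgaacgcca
Uqcrfs1 (chr13:30545317-30545566, minus strand): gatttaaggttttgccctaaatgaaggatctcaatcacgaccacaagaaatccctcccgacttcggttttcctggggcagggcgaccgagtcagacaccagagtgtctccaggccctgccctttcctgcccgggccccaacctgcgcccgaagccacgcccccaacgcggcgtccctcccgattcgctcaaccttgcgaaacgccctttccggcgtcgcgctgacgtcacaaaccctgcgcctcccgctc

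Of the 12 members counted with complex IV, cytochrome c oxidase, 11 were above 0 with IFNbeta and 10 untreated, with medians of 0.12 and 0.18. Cox6c, an accessory subunit, was the highest, with 276, 217 and 235 CPM with SPT6 siRNA, against 207, 191 and 200.1 CPM with NC siRNA, a log2 difference of 0.31 ± 0.19 (edgeR adjusted p = 0.554). Cox5a, an accessory subunit on the matrix side, differed by 0.30 ± 0.16 and Cox5b by 0.14 ± 0.16 (edgeR adjusted p = 0.505 and 0.768). Cox4i1, the largest nuclear-encoded subunit, had 312, 251 and 308 CPM with SPT6 siRNA, against 288, 241 and 275 CPM with NC siRNA, and overlapped between groups. Cox8a, the most abundant per length, differed by 0.13 ± 0.16, Cox6a1 by 0.06 ± 0.16, Cox6b1 by 0.15 ± 0.16, Cox7a2 by 0.29 ± 0.20 and Ndufa4 by 0.11 ± 0.17. Cox7a2l, a factor of respiratory supercomplexes, differed by 0.10 ± 0.23. The signs of Cox4i1, Ndufa4 and Cox7a2l turned when 1 IFNbeta library was left out. Cox7c alone lay below 0, at −0.18 ± 0.18 (edgeR adjusted p = 0.730).

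The 17 members counted with ATP synthase had a median difference of −0.02 with IFNbeta and 0.04 untreated, with 8 of 17 above 0 with IFNbeta. Of the small membrane subunits, Atp5l (subunit g) had 233, 191 and 223 CPM with SPT6 siRNA, against 167, 146 and 152 CPM with NC siRNA, and Atp5j2 (subunit f) had 142, 111 and 113 CPM with SPT6 siRNA, against 108, 85.9 and 90.5 CPM with NC siRNA. The log2 differences with IFNbeta were 0.44 ± 0.18 for Atp5l and 0.38 ± 0.20 for Atp5j2 (edgeR adjusted p = 0.421 and 0.505). Atp5k, another of these small subunits, had 82.3, 66.2 and 77.2 CPM with SPT6 siRNA, against 82.4, 70.3 and 70.2 CPM with NC siRNA. Its difference with IFNbeta was −0.04 ± 0.19 (edgeR adjusted p = 0.951), and its groups overlapped. Atp5l is uncertain, since 84.9% of the 50-base stretches of its coding transcripts also occur in transcripts of other genes, and it was the only member above 50%. In the catalytic head, Atp5a1 (alpha) had 946, 892 and 924 CPM with SPT6 siRNA, against 701, 752 and 686 CPM with NC siRNA, a difference of 0.34 ± 0.19 (edgeR adjusted p = 0.519). Atp5b (beta) had 1094, 927 and 1105 CPM with SPT6 siRNA, against 1044, 1112 and 1076 CPM with NC siRNA, a difference of −0.09 ± 0.20 (edgeR adjusted p = 0.885). The alpha subunit lay higher in all SPT6 siRNA libraries while the beta subunit overlapped. The ratio of Atp5a1 to Atp5b counts was 0.888 ± 0.0655 with SPT6 siRNA and 0.662 ± 0.0209 with NC siRNA (SD, n = 3 libraries each, 1 untreated and 2 with IFNbeta; exact two-sided permutation p = 0.1, the smallest this design allows). That ratio was chosen after its values were seen. Atp5e, the epsilon subunit, differed by 0.32 ± 0.24 (edgeR adjusted p = 0.641), and Atp5s and Atp5sl by 0.39 ± 0.32 and 0.02 ± 0.26. The signs of Atp5b and Atp5sl turned when 1 IFNbeta library was left out.

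Within a single subunit, the genes of the membrane-embedded c ring lay apart. Atp5g1, Atp5g2 and Atp5g3 encode the same mature c subunit behind different import sequences. They lie on chromosome 11 (96068852 to 96075670), chromosome 15 (102662864 to 102672352) and chromosome 2 (73908447 to 73911326), each protein-coding and on the minus strand (GRCm38, GENCODE). Their RefSeq upstream windows (GRCm38.p6, the 250 bases before the start, 5′ to 3′ on the gene's strand) are shown because 3 genes for the same peptide stand under different upstream sequences. The Atp5g2 window lies inside the GENCODE span of the gene. It is thus upstream of the RefSeq start used here, not of the GENCODE gene start. The last bases of the Atp5g1 window also lie inside the GENCODE span of that gene. Capitals mark an NRF1-type match (GCGC, any base, TGCGC, on either strand) in Atp5g2 and an ERR-type match (TNAAGGTCA, here as its reverse complement) in Atp5g3; Atp5g1 held none of the 6 motifs searched. Atp5g3 also held an NRF1-type match, and Atp5g2 a GC box, in the 50 bases after the start.
Atp5g1 (chr11:96075632-96075881, minus strand): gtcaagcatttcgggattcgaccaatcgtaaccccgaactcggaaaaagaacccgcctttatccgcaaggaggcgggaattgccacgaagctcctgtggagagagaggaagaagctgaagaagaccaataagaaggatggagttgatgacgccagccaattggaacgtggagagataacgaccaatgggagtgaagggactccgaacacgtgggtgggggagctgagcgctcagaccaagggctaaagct
Atp5g2 (chr15:102671048-102671297, minus strand): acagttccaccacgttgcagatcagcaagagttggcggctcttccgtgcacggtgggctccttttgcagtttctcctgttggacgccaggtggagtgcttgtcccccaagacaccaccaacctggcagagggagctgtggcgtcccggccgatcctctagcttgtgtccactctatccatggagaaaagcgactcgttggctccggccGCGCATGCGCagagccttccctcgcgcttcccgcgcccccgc
Atp5g3 (chr2:73911327-73911576, minus strand): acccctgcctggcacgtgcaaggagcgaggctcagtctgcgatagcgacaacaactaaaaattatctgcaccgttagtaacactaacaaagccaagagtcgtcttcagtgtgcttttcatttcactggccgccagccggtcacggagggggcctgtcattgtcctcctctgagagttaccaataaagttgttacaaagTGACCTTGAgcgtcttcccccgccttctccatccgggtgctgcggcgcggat

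Atp5g3 had 233, 197 and 218 CPM in the SPT6 siRNA libraries, against 165, 155 and 157 CPM in the NC siRNA libraries. Atp5g2 lay the other way, with 175, 128 and 169 CPM with SPT6 siRNA, against 205, 198 and 187 CPM with NC siRNA. In neither gene did the libraries of the 2 siRNAs overlap, and their order was inverted: Atp5g3 had more counts than Atp5g2 in every SPT6 siRNA library and fewer in every NC siRNA library. Atp5g1 had 88.1, 98.4 and 99.2 CPM with SPT6 siRNA, against 103, 116 and 98.4 CPM with NC siRNA. The log2 differences with IFNbeta were 0.43 ± 0.17 for Atp5g3, −0.41 ± 0.20 for Atp5g2 and −0.23 ± 0.17 for Atp5g1 (edgeR adjusted p = 0.410, 0.469 and 0.619).

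As a share of the counts of the 3 genes, Atp5g3 held 47.0% (95% exact binomial interval 45.6% to 48.4%), 46.4% (45.0% to 47.9%) and 44.8% (43.3% to 46.4%) with SPT6 siRNA, against 34.8% (33.7% to 36.0%), 33.0% (32.0% to 34.0%) and 35.5% (34.2% to 36.8%) with NC siRNA. These intervals cover counting error only, and none of the SPT6 siRNA intervals met an NC siRNA interval. The ratio of Atp5g3 to Atp5g2 counts was 1.33, 1.53 and 1.29 with SPT6 siRNA, against 0.802, 0.781 and 0.839 with NC siRNA. This gives 1.38 ± 0.129 and 0.807 ± 0.0295 (SD, n = 3 libraries each, 1 untreated and 2 with IFNbeta; exact two-sided permutation p = 0.1, the smallest possible). The permutation took no account of treatment or pairs. The ratio sets the gene with the highest difference of the 3 against the one with the lowest, so its p is descriptive only. A ratio within a library does not depend on how libraries are scaled. The summed level of the 3 genes was 469 ± 39.5 CPM with SPT6 siRNA and 461 ± 17.1 CPM with NC siRNA (exact two-sided permutation p = 0.8). Of their coding transcripts, 0% of the 50-base stretches of Atp5g3, 14.8% of those of Atp5g2 and 11.6% of those of Atp5g1 occur in transcripts of other genes.

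**Figure D4:**
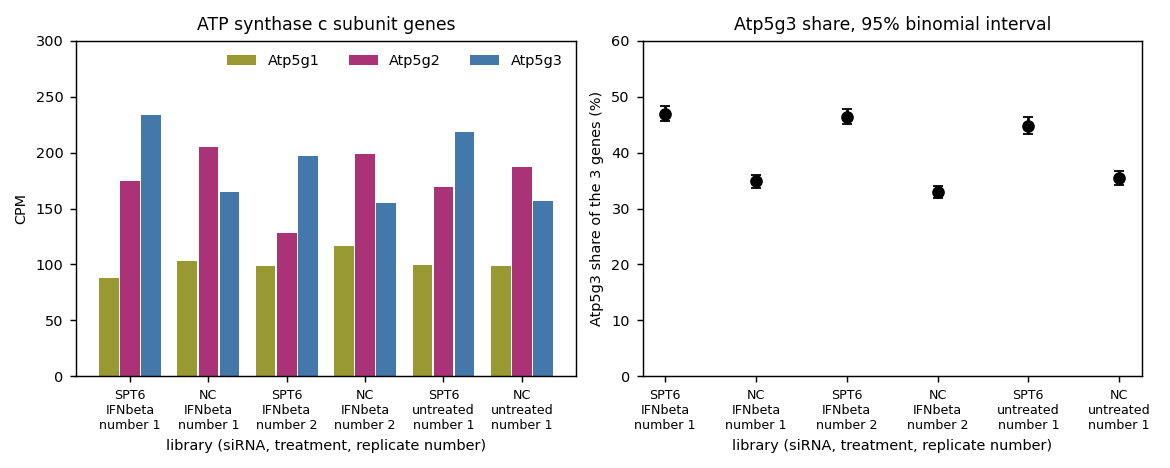
Left, CPM of the 3 ATP synthase c subunit genes in each library, SPT6 siRNA left of NC siRNA in each pair; right, the Atp5g3 share of their counts in percent with its 95% exact binomial interval. Atp5g3 is the tallest bar in the 3 SPT6 siRNA libraries and Atp5g2 in the 3 NC siRNA libraries, and the share is 44.8% to 47.0% with SPT6 siRNA, against 33.0% to 35.5% with NC siRNA.

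After 4 h of IFNbeta, edgeR called no member against the untreated cells. With SPT6 siRNA the median response, IFNbeta minus untreated, was −0.08 (60 of 75 members below 0), against 0.0050 over all genes; it was −0.21 without the SPT6 siRNA library number 1 and 0.02 without number 2. With NC siRNA the median response was −0.01 (40 of 75 below 0), against −0.01 over all genes. It lay between −0.07 and 0.05 without any 1 of the 4 IFNbeta libraries. The counts of called genes were 6 (0.0455%, all higher) with SPT6 siRNA and 18 (0.137%, all higher) with NC siRNA, with 0 members in both. No member had an unadjusted p under 0.05 in either response, where 3.84% of all genes were higher and 2.01% lower at that level with SPT6 siRNA, and 5.29% and 2.94% with NC siRNA, and DESeq2 (129 and 204 genes) and limma-voom (0 and 5 genes) called 0 members too. The largest responses were those of Atp5s, −0.45 ± 0.38 with SPT6 siRNA and −0.67 ± 0.38 with NC siRNA, and of Ndufb7, an accessory subunit of complex I, at 0.46 ± 0.23 with NC siRNA (edgeR adjusted p = 0.902, 0.681 and 0.649). Ndufb7 had 33.6 and 39.2 CPM with IFNbeta and 40.5 CPM untreated in SPT6 siRNA libraries, against 34.2 and 32.9 CPM with IFNbeta and 24.4 CPM untreated in NC siRNA libraries. Its single untreated NC siRNA library was the lowest of the 6.

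Whether the response to IFNbeta differed between the siRNAs was tested as an interaction. The median difference of responses was −0.06 over members, with 54 of 75 below 0, and −0.01 over all genes; without the SPT6 siRNA library number 1 it was −0.27, and without the SPT6 siRNA library number 2 it was 0.05. edgeR called 0 members and 0 genes, with 0 members and 50 genes (0.296% higher, 0.0834% lower) at an unadjusted p under 0.05, and DESeq2 and limma-voom called 0 of both.

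The members also differed between the replicate numbers. With IFNbeta, number 2 minus number 1 had a median over members of −0.28 with SPT6 siRNA and −0.10 with NC siRNA, against −0.00054 and 0.02 over all genes. There were 8 members at least 0.3 lower in number 2 with both siRNAs, where 11.9% of all genes were, and 0 members at least 0.3 higher, where 10.8% of all genes were. The 8 were Ndufa1, Ndufa6, Ndufa7, Ndufc1, Ndufv3, Uqcrh, Cox7a2l and Atp5j2. Ndufv3, a complex I accessory subunit, had 41.2 CPM in number 2 and 62.0 CPM in number 1 with SPT6 siRNA, and 35.7 CPM in number 2 and 62.0 CPM in number 1 with NC siRNA. For 3 of these 8 the SPT6 siRNA difference was 0.3 or more in every pair (Ndufa1, Uqcrh and Atp5j2). The number 2 SPT6 siRNA library also had the highest Rn45s share and the lowest share of cytosolic ribosomal protein counts, 4.31%, against 5.67% to 6.89% in the others. The part of these in the members' values was not tested, apart from leaving Rn45s out of the counts, which gave the same median of 0.03 for SPT6 siRNA against NC siRNA with IFNbeta.

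Other mitochondrial lists were set beside the members with no gene called in any of them by edgeR in this comparison. The 44 assembly factors tested had a median of 0.16 with IFNbeta and 0.17 untreated, with 31 of 44 above 0 with IFNbeta. Nubpl, which inserts iron-sulphur clusters into complex I, had 15.8, 17.0 and 15.7 CPM with SPT6 siRNA, against 10.0, 8.72 and 11.2 CPM with NC siRNA, a difference of 0.81 ± 0.22 (edgeR adjusted p = 0.334). Ttc19 and Uqcc2 both serve complex III and lay on opposite sides, at 0.45 ± 0.17 and −0.63 ± 0.18 (edgeR adjusted p = 0.385 and 0.349). The 23 other electron carriers and ADP/ATP exchange genes had a median of 0.02, among them Coq3 and Coq4, of ubiquinone synthesis, at 0.45 ± 0.19 and 0.53 ± 0.25, and Atpif1, the ATP synthase inhibitor, at −0.40 ± 0.19. The 19 TCA cycle genes had a median of 0.09, with 13 of 19 above 0. Ogdh, of the 2-oxoglutarate dehydrogenase complex, differed by 0.45 ± 0.22 and Sucla2, of succinyl-CoA ligase, by 0.35 ± 0.17, while Idh2, the mitochondrial isocitrate dehydrogenase, differed by −0.55 ± 0.17 (edgeR adjusted p = 0.475, 0.471 and 0.356).

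The 77 mitochondrial ribosomal protein genes had a median of −0.05 with IFNbeta and 0.11 untreated, and the 23 import genes 0.01 and 0.24. The ribosomal subunits Mrps6, Mrpl53 and Mrpl54 differed by 0.59 ± 0.22, 0.55 ± 0.21 and −0.51 ± 0.23 with IFNbeta (edgeR adjusted p = 0.385, 0.399 and 0.442). Tomm22 and Tomm5, of the outer membrane translocase, differed by 0.54 ± 0.17 and 0.56 ± 0.20, and Timm50, of the inner membrane translocase, by −0.63 ± 0.22 (edgeR adjusted p = 0.361, 0.383 and 0.374). The 18 biogenesis regulators had a median of −0.09. Tfb2m, a mitochondrial transcription factor, differed by 0.60 ± 0.19, Peo1, the mitochondrial DNA helicase, by 0.34 ± 0.18 and Polrmt, the mitochondrial RNA polymerase, by −0.41 ± 0.20 (edgeR adjusted p = 0.359, 0.501 and 0.482). Among regulators known to act on OXPHOS promoters, Nrf1 differed by −0.11 ± 0.19, Gabpa by 0.10 ± 0.16, Gabpb1 by −0.03 ± 0.21, Gabpb2 by −0.18 ± 0.17, Yy1 by 0.18 ± 0.22 and Esrra by 0.45 ± 0.27. The coactivators lay on both sides of 0, with Ppargc1a at 0.40 ± 0.52, Ppargc1b at −0.58 ± 0.47 and Pprc1 at −0.18 ± 0.27, and Ppargc1a was −0.35 in the untreated pair. Tfam, which packages and transcribes mitochondrial DNA, differed by −0.29 ± 0.18 with IFNbeta. The 19 glycolysis genes had a median of 0.05, with 10 above 0 and 9 below. Those with the smallest p, Hk2, Pgam1 and the lactate transporter gene Slc16a1, differed by 0.39 ± 0.17, 0.34 ± 0.20 and 0.30 ± 0.16 (edgeR adjusted p = 0.430, 0.531 and 0.513).

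The cytosolic ribosomal protein genes are short, as the members are, but took a larger share of the counts. This share was 4.31% to 6.89% of gene counts per library, against 0.840% to 1.06% for the members. These ribosomal genes had a median of −0.37 with IFNbeta and −0.22 untreated, with 80 of 81 below 0 with IFNbeta and 73 lower in all 3 pairs. By the same counts 31 of 75 OXPHOS members were below 0 and 7 lower in all 3 pairs. Rpl28 differed by −0.79 ± 0.19 with IFNbeta (edgeR adjusted p = 0.309), Rpl12 by −0.70 ± 0.22 and Rps27 by −1.45 ± 0.43 (edgeR adjusted p = 0.359 and 0.350). Rps27 is uncertain, since its counted level was low. It had 1.02, 1.04 and 2.04 CPM with SPT6 siRNA, against 3.31, 2.37 and 1.73 CPM with NC siRNA, and its untreated pair went the other way.

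**Figure D5:**
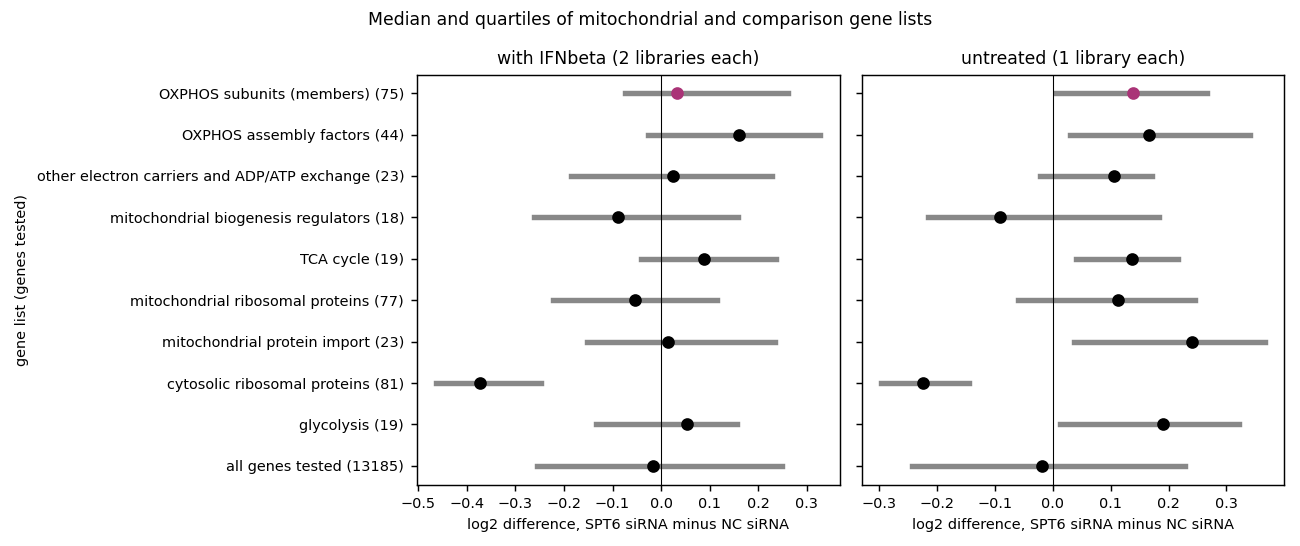
Median (points) and quartiles (bars) of the log2 difference, SPT6 siRNA minus NC siRNA, for the members, 8 comparison lists and all genes tested, with IFNbeta on the left and untreated on the right. The members lie at 0.03 with IFNbeta and 0.14 untreated, the assembly factors at 0.16 and 0.17, and the cytosolic ribosomal proteins at −0.37 and −0.22.

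The members' median genomic span was 7717 bp, against 23111 bp over all genes tested, and their median coding length 430.5 bases, against 1410. Of the 74 with annotation, 8 were longer than that median span. The cytosolic ribosomal protein genes had a median span of 3368 bp and a median coding length of 456 bases. Over the 74 members with annotation, the difference with IFNbeta had Spearman correlations of −0.24 with coding length, −0.29 with transcript length, −0.19 with transcript GC content and −0.12 with the share of 50-base stretches held by other genes, and of 0.04 with the mean level over the 75 members. These are descriptions across genes from the same 6 libraries. Sequence shared with other genes was common: 24 members had over 10% of such stretches in other transcripts and 32 had none, with a median of 1.34%.

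The promoters were searched for 6 motifs, and no test was made of the shares. RefSeq windows from 250 bases before to 50 after the start were given for 61 members, in 66 promoters. The NRF1-type letters (GCGC, any base, TGCGC) were in 25.8% of the members' promoters, against 9.66% of those of tested genes and 4.60% of all RefSeq promoters. An ETS match of the kind GABPA binds (CCGGAAG) was in 24.2%, against 16.8% of tested genes and 8.86% of all, and a YY1-type match (AANATGGC) in 24.2%, against 8.34% and 6.05%. The ERR-type letters TNAAGGTCA were in 4.55%, against 0.724% and 1.28%, the GC box GGGCGG in 37.9%, against 61.3% and 35.7%, and TATAAA in 9.09%, against 7.35% and 13.6%. Promoters of cytosolic ribosomal protein genes held the ETS letters in 37.5%, the YY1-type letters in 23.6%, the NRF1-type letters in 8.33%, the ERR-type letters in 2.78%, the GC box in 61.1% and TATAAA in 9.72%. Both strands were searched, and a match is letters in a window, not a bound site.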

How the data were processed

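Paired reads of 6 NIH3T3 RNA libraries came from a HiSeq2000, per the labels' protocols. The authors deposited whole-number counts per gene symbol, without normalisation. Per the submitters' processing notes, HTSeq 0.6.1p1, TopHat2 2.1.0 and DESeq2 were used with builds mm10 and GRCm38; their roles are not stated. Annotation and strand setting are not given in the sources used here, and reads of overlapping or antisense genes are inseparable. Of all reads listed, 32.9% to 38.0% were in genes, 33.8% to 37.5% in no feature and 27.9% to 31.3% not unique; the last 2 classes and ambiguous reads entered no library size, and members with near-identical copies are undercounted.

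Counts were analysed in R 4.3.3 with edgeR 4.0.16: filterByExpr (count minimum 10), TMM factors, and a robust quasi-likelihood fit of 4 group means over 6 libraries without a replicate block, with Benjamini-Hochberg adjustment over 13185 genes and calls at an adjusted p under 0.05. Residual degrees of freedom come from the IFNbeta groups alone, whose spread is also applied to each untreated library. SE was obtained by dividing the log2 difference by the root of F. For pair differences the log2 CPM had a prior count of 2. Same-group libraries differed far beyond counting noise (chi-square per degree of freedom 35.0 and 39.6). Lengths, positions and shared 50-base stretches came from GENCODE for GRCm38 (74 members matched), promoters from RefSeq GRCm38.p6. DESeq2 1.42.0, limma-voom (limma 3.58.1), other scalings and filters and left-out libraries were alternatives. The fit was tested on simulated counts in which 200 genes changed by more than any member differed with IFNbeta, without a replicate-number difference. That test does not show how the fit performs on differences as small as those of the members. Intervals and floors (3 counts) cover counting error only.

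The members and gene lists were chosen with earlier results of these data known. Named genes were the highest and lowest member of each complex, core and catalytic members, isoform sets, non-subunits, level extremes, up to 3 genes per other list with the smallest p, and Supt6; other members named for their pair differences, non-overlap or replicate difference, and the Atp5a1 to Atp5b ratio, were added after their values were seen. Atp5k was named to give all 3 small membrane subunits of ATP synthase. Ndufa4 was counted with complex IV.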

Additional observations from a re-analysis of the deposited data

Results flagged for a closer look

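For 6 members both SPT6 siRNA libraries with IFNbeta lay beyond both NC siRNA libraries with IFNbeta on one side, while the untreated SPT6 siRNA library lay on the other side of its NC siRNA library. The SPT6 siRNA effect, as a log2 difference with IFNbeta minus that untreated, was −0.41 ± 0.37 (SE) for Ndufa13, −0.30 ± 0.31 for Cox7c, −0.30 ± 0.32 for Ndufs8, −0.26 ± 0.28 for Ndufa10, −0.24 ± 0.29 for Atp5g1 and −0.24 ± 0.29 for Ndufb8. By pairs, 12 members had both IFNbeta pairs opposite in sign to the untreated pair. For 7 members both IFNbeta libraries lay below the untreated library with SPT6 siRNA and above it with NC siRNA. The response with SPT6 siRNA minus that with NC siRNA was −0.61 ± 0.32 for Ndufb7, −0.26 ± 0.32 for Ndufa5, −0.26 ± 0.28 for Ndufa10, −0.24 ± 0.31 for Uqcrq, −0.24 ± 0.29 for Atp5g1, −0.23 ± 0.30 for Ndufa11 and −0.19 ± 0.29 for Uqcr11. Some of these sides were nearly tied. Untreated, Ndufs8 had 70.5 CPM with SPT6 siRNA and 70.4 CPM with NC siRNA, and Atp5g1 had 99.2 and 98.4 CPM. With SPT6 siRNA, Ndufa5 had 51.3 CPM with IFNbeta in number 1 and 51.6 CPM untreated. Atp5g1 had 98.4 CPM with IFNbeta in number 2 and 99.2 CPM untreated. Each untreated group is 1 library. The share of all genes tested that met the same rules was not counted. The counts of 6, 12 and 7 members can therefore not be called high or low. The edgeR interaction test did not call any of these members (adjusted p = 0.9999 for each), so the differences are not shown beyond these libraries.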

How the results depend on the processing

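No member was called in any comparison with DESeq2, limma-voom, DESeq2 size factors, library-size scaling, either filter, a left-out library or Rn45s left out. The replicate number, used as a block, moved the counts most. It called 9 members (12% of members, 20% of all genes) for SPT6 siRNA against NC siRNA with IFNbeta, and 2 untreated (308 genes in all), where the fit without the block called 0. The 9 were Ndufa1, Ndufa11, Ndufb6, Uqcrfs1, Uqcrh, Atp5g3, Atp5j2 and Atp5l, higher, and Atp5g2, lower. With the block, the median response to IFNbeta turned to 0.0019 with SPT6 siRNA and 0.079 with NC siRNA, against −0.077 and −0.011 without it, and 545 and 957 genes were called, with 0 members. Taking the 3 pairs together with the block, chosen after seeing the data, called 17 members (22.7%, against 24.6% of all genes), 16 higher. The labels do not say that a number marks a shared batch, and 2 IFNbeta pairs are too few to settle it; number 2 minus number 1 correlated at 0.56 across genes and 0.47 across members between the siRNAs.

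With 1 IFNbeta library left out, the median difference of responses ran between −0.27 and 0.047, and the cause was not tested. Named members near 0 turned sign, with left-out values of −0.30 to 0.18 for Uqcrb, −0.037 to 0.33 for Ndufv1, −0.17 to 0.040 for Ndufs7, −0.27 to 0.16 for Sdha, −0.12 to 0.039 for Uqcrc1, −0.087 to 0.23 for Cox4i1, −0.23 to 0.017 for Atp5b, −0.18 to 0.34 for Cox7a2l, −0.024 to 0.22 for Ndufa4 and −0.16 to 0.17 for Atp5sl. Under library-size scaling Uqcrb was 0.047, Ndufs7 0.0084, Sdha 0.051 and Uqcrc1 0.054, and in the 3 pairs Ndufs7 was 0.062, Uqcrc1 0.032 and Atp5sl −0.034. Fits of the compared groups alone could not be made for the untreated comparison or the difference of responses, which leave no residual degrees of freedom or need all groups. With 1 or 2 libraries a group, the standard errors of single members were 0.16 to 0.32 with IFNbeta, as large as most of the differences.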
